A study of Mus musculus with 18 samples.

Results

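Netrins are guidance cues for growing axons, and 10 genes for netrins and their receptors were followed in lumbar dorsal root ganglia (DRG) of mice with and without bone myeloma. The genes were taken by symbol: the ligands Ntn1, Ntn4 and Ntng1 and the receptors Dcc, Neo1, Unc5a, Unc5b, Unc5c, Unc5d and Dscam. All 10 were present among the 48529 genes in the quantifications, and all 10 had enough reads to be tested. The MM group held 9 libraries from mice inoculated inside the femur with 5TGM1-GFP, a line of mouse myeloma cells (malignant plasma cells) that carries a fluorescent label. The SHAM group held 9 libraries from mice given vehicle by the same route. Both groups were male C57BL/KaLwRijHsd mice aged 5 to 7 weeks, and whole ganglia of lumbar levels L2, L3 and L4 on the inoculated side were frozen on post-surgical day 24. No other allele or agent is given for either group, and the series design implies 1 mouse for each library. Whole ganglia contain neurons, glia, vessels, connective tissue and any tumour cells that reached them, so each level is a sum over all of these cells.

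Netrin-1 is a secreted protein related to laminins. It attracts axons through DCC and, when an UNC5 receptor is present, repels them; in embryonic DRG, netrin-1 of the spinal cord keeps early sensory axons away through UNC5C. Neogenin, the product of Neo1, is the closest relative of DCC and also binds repulsive guidance molecules (RGMs) and bone morphogenetic proteins (BMPs). Netrin-4 sits in basement membranes, where it binds laminin, and netrin-G1 is anchored to the cell surface and binds other partners than DCC and UNC5 receptors.

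The libraries held between 19218249 and 21771206 estimated reads, and 3 reads corresponded to between 0.14 and 0.16 CPM (read counts on a common scale of library size). All 13 sensory neuron markers passed the filter on low counts, and their summed level was 7717 to 17630 TPM (a measure that is also scaled for transcript length) in MM and 13380 to 18410 TPM in SHAM. Libraries MM5, MM8 and MM9 stood apart: their summed level of 12 plasma cell and myeloma markers was 14710, 18110 and 27730 TPM, against 204.6 to 3163 TPM in the other MM libraries and 93.94 to 229.3 TPM in SHAM. None of those 12 markers was at 0 in all 18 libraries. In SHAM7 and SHAM8 the summed level of 6 skeletal muscle markers was 4511 and 19160 TPM, against a SHAM median of 39.05 TPM. It was also high in MM6 (2548 TPM), SHAM2 (1422 TPM) and MM2 (898.5 TPM), against an MM median of 97.62 TPM. Because MM5, MM8 and MM9 stood apart, results are also given without them where this matters. MM2 and MM6 were kept in those results.

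Per transcript length, Ntng1 and Neo1 were the highest of the 10 genes and Dcc was the lowest in both groups. The order by mean level was the same in MM and SHAM: Ntng1, Neo1, Dscam, Unc5a, Ntn1, Ntn4, Unc5c, Unc5b, Unc5d and Dcc. TPM was summed over the transcripts of a gene, so this order rests in part on the estimated division of reads between short and long transcripts. The long Dscam-201 alone averaged 5.63 TPM in SHAM, below Unc5a at 9.81 TPM. Ntng1 averaged 21.5 ± 5.24 TPM in MM and 25.1 ± 4.66 TPM in SHAM, and Neo1 averaged 17.9 ± 2.63 TPM in MM and 21.8 ± 1.05 TPM in SHAM (SD, n = 9 each). Dcc averaged 0.194 ± 0.0642 TPM in MM and 0.288 ± 0.119 TPM in SHAM, although it is the receptor by which netrin-1 attraction is best known. Neighbours in this order overlapped in range over the libraries of a group, with 3 exceptions in both groups: Neo1 lay above Dscam, Unc5b above Unc5d, and Unc5d above Dcc.

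**Figure D1:**
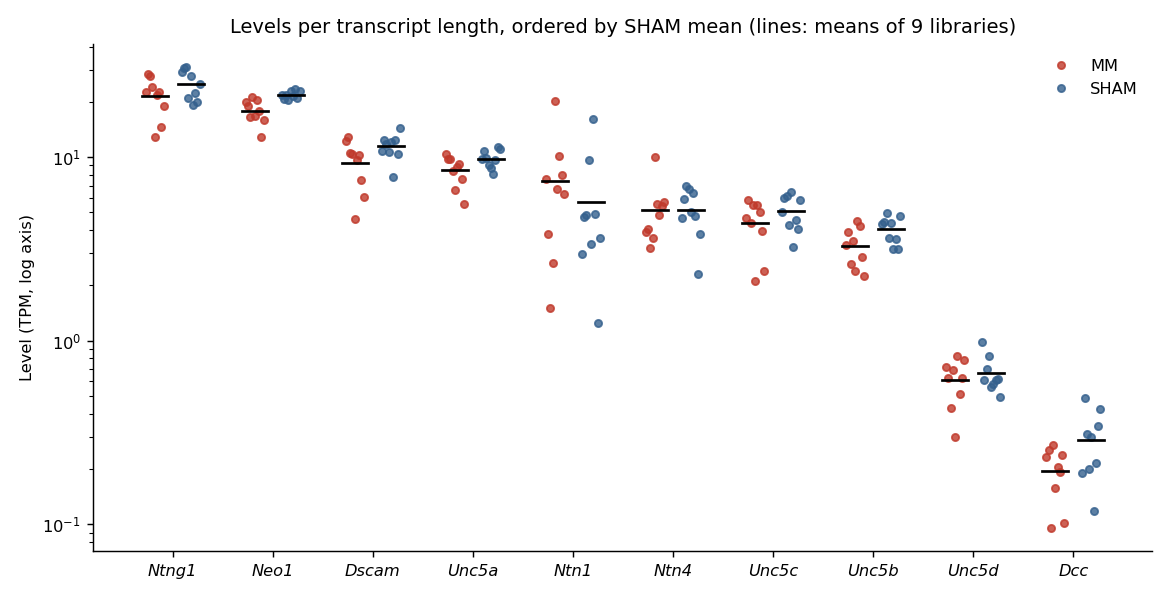
Level of each of the 10 genes in TPM on a log axis, 1 point per library, with MM left of SHAM for each gene and black lines at the means of 9 libraries. Genes run from Ntng1 at 21.5 TPM in MM and 25.1 TPM in SHAM down to Dcc at 0.194 TPM in MM and 0.288 TPM in SHAM.

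The shares of the receptor genes in their summed level overlapped between the groups. Neogenin made up 41.0 ± 5.31% of the summed TPM of the 7 receptor genes in MM and 41.3 ± 3.21% in SHAM. The 4 UNC5 genes together made up 37.8 ± 2.80% in MM and 36.8 ± 2.01% in SHAM. Dcc made up 0.441 ± 0.131% in MM and 0.532 ± 0.196% in SHAM. Unc5a was the main UNC5 gene, with 51.0 ± 4.49% of their summed TPM in MM and 50.4 ± 4.56% in SHAM. The spread between libraries in each group was larger than the difference between the means for each of these shares, and the shares were not tested. They also rest on the estimated division of reads between transcripts.

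**Figure D2:**
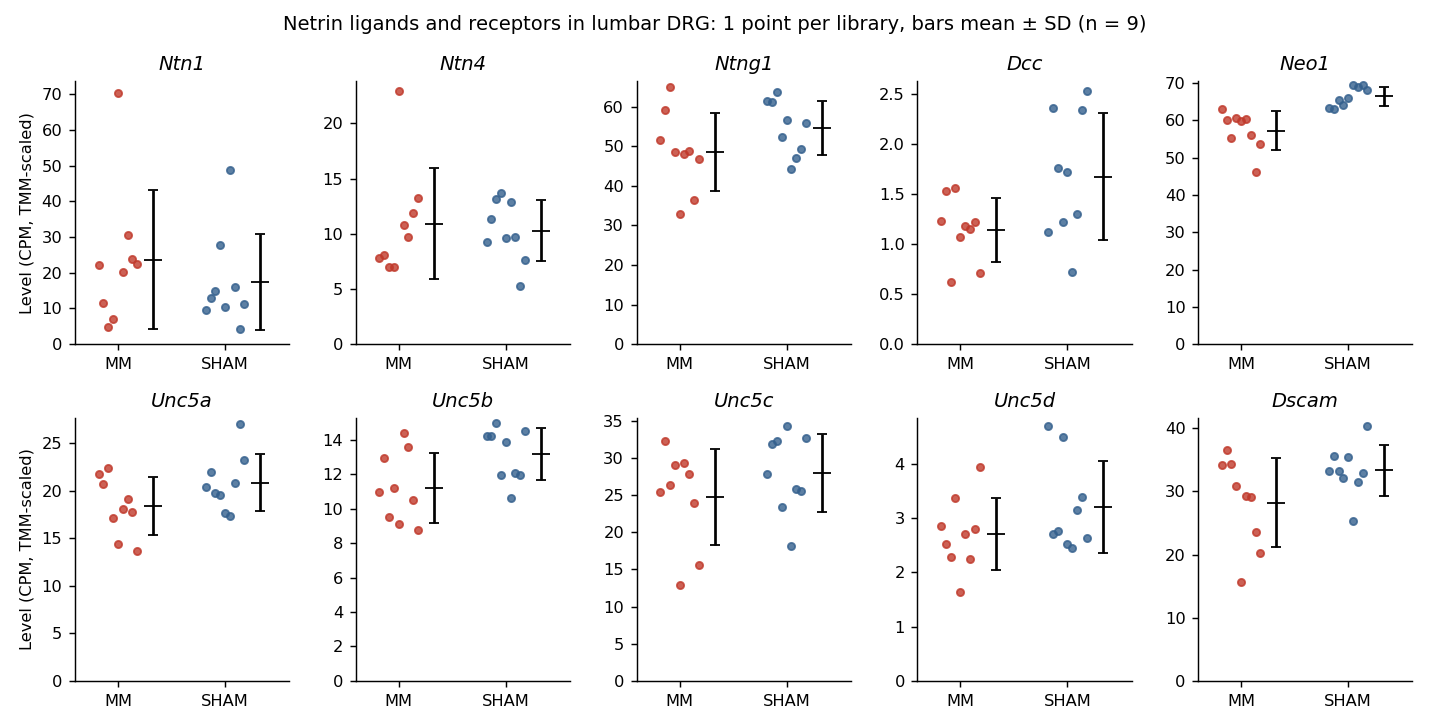
Level of each of the 10 genes in CPM, 1 point per library, with MM left of SHAM and bars for the mean ± SD of 9 libraries (each panel has its own axis from 0). Neo1 shows no overlap, with MM at 46.0 to 63.07 CPM and SHAM at 63.11 to 69.3 CPM, and Ntn1 spreads most, at 4.77 to 70.4 CPM in MM and 4.14 to 48.9 CPM in SHAM.

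Of the 10 genes, 1 fell in MM (Neo1), 0 rose and 9 did not pass, by edgeR's quasi-likelihood test with Benjamini-Hochberg adjustment at 0.05 over 15774 genes. DESeq2 also gave 1 lower and 0 higher of the 10, and over 19999 genes it called 6.88%, 5.67% higher and 1.22% lower in MM. Over all genes tested, 2.99% passed in either direction, 2.75% were higher in MM and 0.241% were lower in MM. Unadjusted p was under 0.05 for 3 of the 10 genes (Neo1, Dcc and Unc5b), against 22.5% of all genes. The log2 fold change was below 0 for 8 of the 10 genes, against 51.1% of all genes, and its median was -0.20, against -0.0042 over all genes. Such signs were not particular to these genes. All 13 sensory neuron markers were also below 0 (median -0.15), against 2 of 10 Schwann cell markers.

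**Figure D3:**
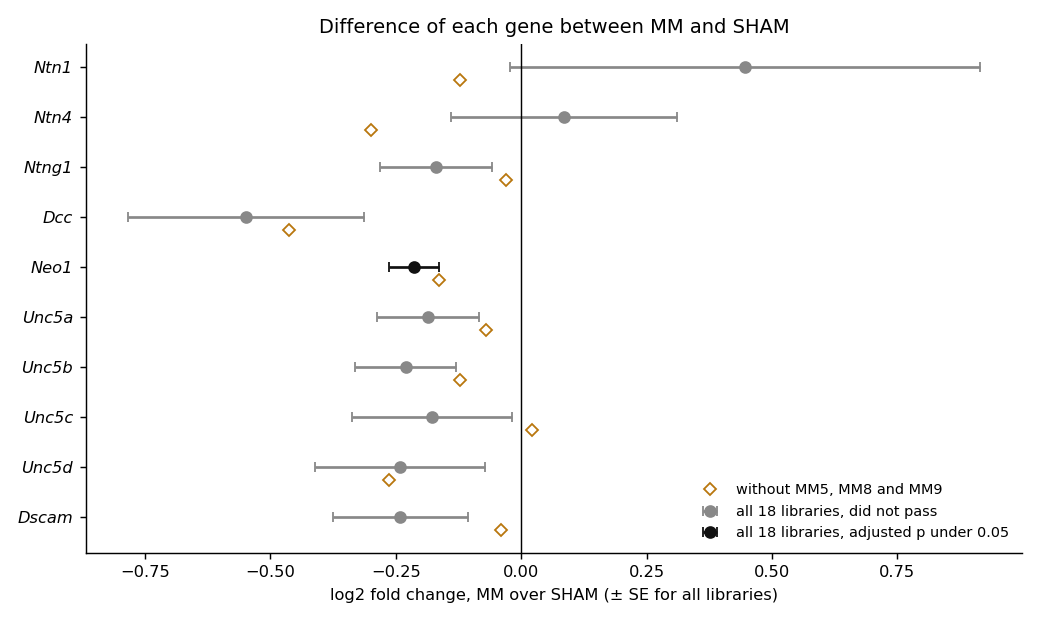
Log2 fold change of each gene, MM over SHAM, with filled points and SE bars for all 18 libraries and open diamonds for the fit without MM5, MM8 and MM9. Neo1 is the 1 gene past the threshold, at -0.21 with all libraries and -0.16 without those 3. The diamonds of Ntn1, Ntn4 and Unc5c lie at -0.12, -0.30 and 0.02, on the other side of 0 from their points.

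Neo1 (ENSMUSG00000032340, chromosome 9) encodes neogenin. It fell by 13.8% in MM. Its level was 46.0 CPM at the lowest, 59.9 at the median and 63.07 at the highest in MM, against 63.11, 66.0 and 69.3 CPM in SHAM. Every MM library was below every SHAM library, and the gap was narrow: MM1, the highest of MM, lay just under SHAM2, the lowest of SHAM. Groups without overlap and lower in MM were found for 0.0254% of the genes tested. On the TPM scale the ranges did overlap, with 12.9 to 21.2 TPM in MM and 20.4 to 23.4 TPM in SHAM. The log2 fold change was -0.21 ± 0.05 (SE), with an adjusted p of 0.0313 by edgeR's quasi-likelihood test. In whole ganglia, fewer cells of a type and less RNA per cell cannot be told apart.

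The call for Neo1 lay close to the threshold. Without MM5, MM8 and MM9 the log2 fold change was -0.16, with an adjusted p of 0.0826. The adjusted p was also above 0.05 when any 1 of MM5, MM9, SHAM1, SHAM2, SHAM3, SHAM5, SHAM7, SHAM8 and SHAM9 was left out, at 0.0501 to 0.0672, and with no filter on low counts (0.0502). The direction did not change in any of these fits, and leaving out 1 library gave log2 fold changes of -0.23 to -0.18. Unadjusted p by edgeR was 0.000426 with all libraries and 0.00051 without MM5, MM8 and MM9. It was 0.000182 to 0.0013 when 1 library was left out. The adjusted p also depends on the p-values of the other genes. Over all genes, 471 passed with all libraries and 60 without MM5, MM8 and MM9. DESeq2 gave -0.22 with an adjusted p of 0.00224, and limma on the deposited normalized table gave -0.25 with an adjusted p of 0.0547.

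**Figure D4:**
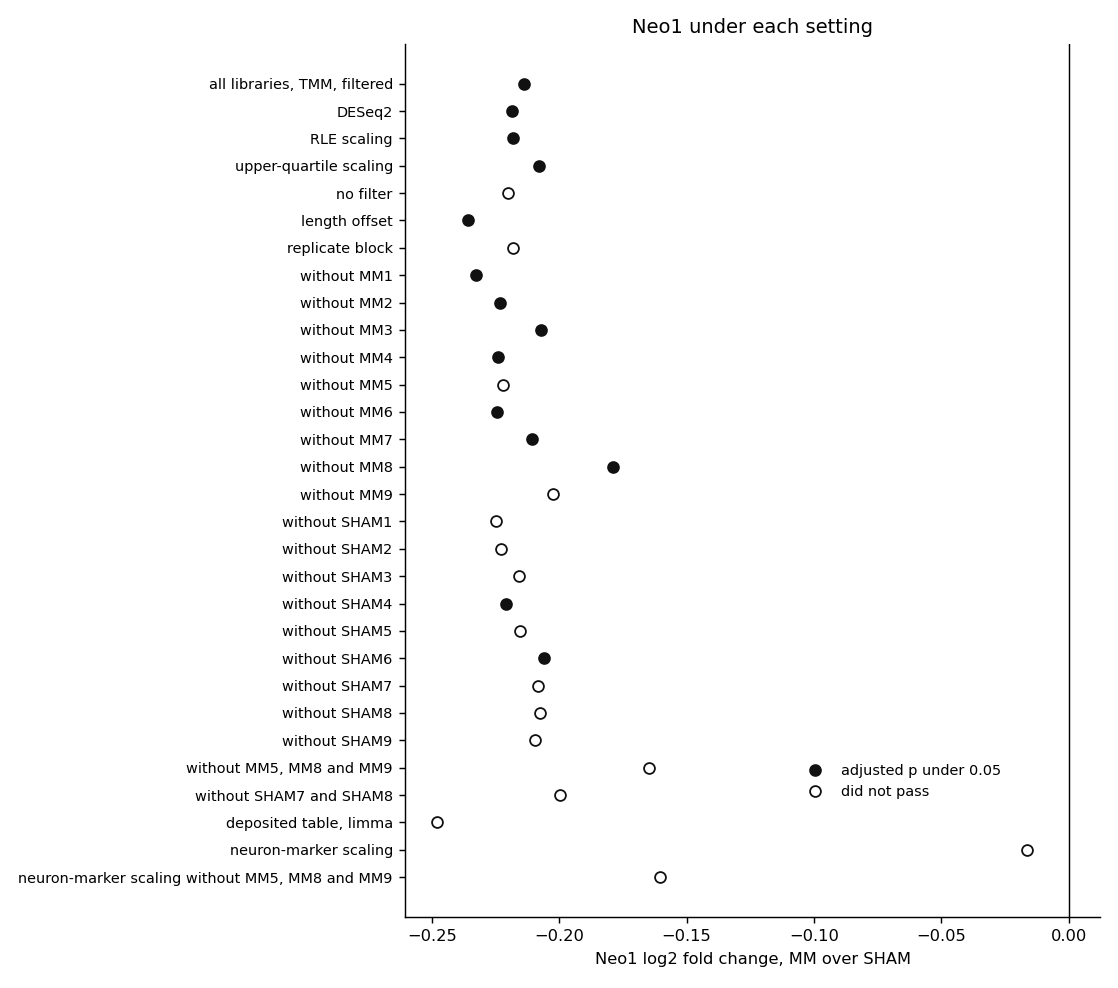
Log2 fold change of Neo1, MM over SHAM, under each way of processing, with filled points where the adjusted p was under 0.05 and open points where it was not. All points lie below 0, and the point nearest to 0 (-0.02) is scaling to the sensory neuron markers over all libraries.

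The 13 sensory neuron markers did not pass. All 13 had log2 fold changes below 0 in MM, with a median of -0.15, and 0 of 13 passed by edgeR; unadjusted p was under 0.05 for 1 of them, against 22.5% of all genes, and DESeq2 called 1 lower (Scn10a). The lowest p was that of Scn10a, the voltage-gated sodium channel Nav1.8 of pain-sensing neurons, with a mean of 910 ± 115 CPM in MM and 1094 ± 81.0 CPM in SHAM (log2 fold change -0.27 ± 0.07, adjusted p = 0.0535 by edgeR). When libraries were scaled to these 13 markers, a choice made after seeing the data, Neo1 was at -0.02 (adjusted p = 0.934) and the median of all genes shifted to 0.19. With that scaling and without MM5, MM8 and MM9, Neo1 was at -0.16 (adjusted p = 0.914) and the median of all genes was at -0.0014. Whether the neuron share of the RNA had a part in the fall of Neo1 was not tested.

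Among 9 SHAM libraries, Neo1 varied little. Its coefficient of variation was 3.88%, and 4.03% of the genes tested varied less. Among 4272 genes with a mean within 2-fold of that of Neo1, 8.54% varied less. In MM the coefficient was 9.01%. The genes most like Neo1 over the 18 libraries, after centring each group, were Prkca (Pearson r = 0.822), Tgfbrap1 (r = 0.797) and Trpm3 (r = 0.796), out of 15759 compared. All 3 share libraries and scaling with Neo1, so these values are a description. Prkca had a log2 fold change of -0.20 ± 0.06 (adjusted p = 0.0727), Tgfbrap1 of -0.12 ± 0.03 (adjusted p = 0.0728) and Trpm3 of -0.16 ± 0.05 (adjusted p = 0.102), all by edgeR, so none of them passed.

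Neo1 transcripts come with and without a short exon, and both forms were present in the ganglia. Exon 21 of Neo1-201 is a stretch of 33 bases at chr9:58902083-58902115 on the minus strand (GRCm38, GENCODE M21) that Neo1-202 skips. The junction is shown with the exon in capitals and its flanks in lower case, to show which bases set the forms apart.
Neo1-201, exon 21 included: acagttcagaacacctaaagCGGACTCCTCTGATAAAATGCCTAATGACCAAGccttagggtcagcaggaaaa
Neo1-202, exon 21 skipped: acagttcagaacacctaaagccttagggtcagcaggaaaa
Of the summed TPM of these 2 transcripts, the form with the exon held 66.7 ± 5.23% in MM (59.9 to 72.7%) and 62.5 ± 5.35% in SHAM (52.8 to 69.5%). The ranges overlapped and the share was not tested. Neo1-202 had 4.63 ± 1.23 TPM in MM and 6.27 ± 1.03 TPM in SHAM, with a log2 fold change of -0.37 ± 0.13 (adjusted p = 0.210 by edgeR over 33664 transcripts). Neo1-201 had 9.12 ± 1.19 TPM in MM and 10.4 ± 0.895 TPM in SHAM, with a log2 fold change of -0.12 ± 0.06 (adjusted p = 0.368). Neither transcript passed, and a shorter transcript, Neo1-205, was at -0.32 ± 0.20 (adjusted p = 0.513). Salmon divides reads between overlapping transcripts by estimate, and Neo1-201 and Neo1-202 also differ at their ends, so the share rests on more than the exon.

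Ntn1 (ENSMUSG00000020902, chromosome 11), the gene of the secreted ligand netrin-1, was the least even of the 10 genes. Its level was 4.77 CPM at the lowest, 22.1 at the median and 70.4 at the highest in MM, against 4.14, 12.9 and 48.9 CPM in SHAM. The ranges overlapped almost entirely, with the highest libraries MM5 and SHAM6 and the lowest MM3 and SHAM8. The highest library was 14.8 times the lowest in MM and 11.8 times in SHAM. The SHAM coefficient of variation was 77.6%, and 97.7% of the genes tested varied less (98.3% of 4722 genes with a like mean). Its log2 fold change was 0.45 ± 0.47 (adjusted p = 0.586 by edgeR), and it was -0.12 without MM5, MM8 and MM9. Single libraries moved it too, to 0.04 without MM5 and to 0.82 without SHAM6.

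Ntn4 (ENSMUSG00000020019, chromosome 10) encodes the basement membrane ligand netrin-4. Its level was 6.96 CPM at the lowest, 9.67 at the median and 23.0 at the highest in MM, against 5.25, 9.75 and 13.7 CPM in SHAM. Apart from MM5, all MM libraries lay within the SHAM range. Between the groups, the log2 fold change was 0.09 ± 0.23 (adjusted p = 0.845 by edgeR). It was -0.13 without MM5 and -0.30 without MM5, MM8 and MM9, so its sign depended on these libraries.

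Ntng1 (ENSMUSG00000059857, chromosome 3), which encodes the membrane-anchored netrin-G1, was the most abundant of the 3 ligand genes per length. It held 64.1 ± 16.7% of their summed TPM in MM and 70.7 ± 12.1% in SHAM. Its level was 32.97 CPM at the lowest, 48.4 at the median and 64.9 at the highest in MM, against 44.2, 55.8 and 63.6 CPM in SHAM. The ranges overlapped, with MM5 and MM8 below all SHAM libraries and MM3 above them. For the gene as a whole, the log2 fold change was -0.17 ± 0.11 (adjusted p = 0.372 by edgeR). It was -0.11 without MM5 and -0.03 without MM5, MM8 and MM9. By transcript, Ntng1-206, which GENCODE annotates as a target of nonsense-mediated decay, held 38.1% of the gene's TPM over all libraries, Ntng1-208 held 35.2% and Ntng1-209 held 14.1%.

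Dcc (ENSMUSG00000060534, chromosome 18), the attractive netrin-1 receptor, had few reads, between 13 and 49 estimated reads in a library. Its level was 0.620 CPM at the lowest, 1.18 at the median and 1.56 at the highest in MM, against 0.719, 1.72 and 2.53 CPM in SHAM. All 9 MM libraries lay below the SHAM median, while the ranges overlapped. The log2 fold change, -0.55 ± 0.23, was the most negative of the 10 genes, and it did not pass (unadjusted p = 0.0309, adjusted p = 0.183 by edgeR). Without MM5, MM8 and MM9 it was -0.46.

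The UNC5 genes encode repulsive netrin receptors with a death domain in their cytoplasmic part. Unc5a (ENSMUSG00000025876, chromosome 13) had 13.7 CPM at the lowest, 18.1 at the median and 22.4 at the highest in MM, against 17.3, 20.4 and 27.0 CPM in SHAM. Unc5b (ENSMUSG00000020099, chromosome 10) had 8.73, 10.9 and 14.4 CPM in MM, against 10.6, 13.9 and 14.96 CPM in SHAM. For Unc5a 3 MM libraries, and for Unc5b 4, lay below all SHAM libraries, and no MM library lay above them. Unc5a had a log2 fold change of -0.19 ± 0.10 (adjusted p = 0.286), and of -0.07 without MM5, MM8 and MM9. Unc5b had one of -0.23 ± 0.10 (unadjusted p = 0.0348, adjusted p = 0.193), with 8 of 9 MM libraries below the SHAM median, and -0.12 without MM5, MM8 and MM9.

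Unc5c (ENSMUSG00000059921, chromosome 3) had 12.9 CPM at the lowest, 26.4 at the median and 32.4 at the highest in MM, against 18.2, 27.8 and 34.4 CPM in SHAM. Its lowest libraries were MM5 and MM9, the others lying within the SHAM range. Unc5d (ENSMUSG00000063626, chromosome 8) had 1.63, 2.70 and 3.94 CPM in MM, against 2.44, 2.76 and 4.69 CPM in SHAM. The log2 fold change was -0.18 ± 0.16 for Unc5c (adjusted p = 0.518) and -0.24 ± 0.17 for Unc5d (adjusted p = 0.401). Without MM5, MM8 and MM9 it was 0.02 for Unc5c and -0.26 for Unc5d, and Unc5c was at -0.09 without MM5 and -0.11 without MM9. The value of Unc5d depended on the processing. It was -0.07 with a length offset and -0.09 with limma on the deposited table. The median TPM of Unc5d was 0.627 in MM and 0.613 in SHAM. All adjusted p-values for the UNC5 genes are from edgeR's quasi-likelihood test.

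Most Unc5a transcripts lacked exon 6, which codes for a thrombospondin type 1 repeat in the extracellular part of the receptor. It spans 168 bases at chr13:54997193-54997360 on the plus strand (GRCm38, GENCODE M21), and Unc5a-201 has it while Unc5a-202 and Unc5a-203 skip it. The junction is shown with the exon in capitals and its flanks in lower case, since it separates the main form from the rare one.
Unc5a-201, exon 6 included: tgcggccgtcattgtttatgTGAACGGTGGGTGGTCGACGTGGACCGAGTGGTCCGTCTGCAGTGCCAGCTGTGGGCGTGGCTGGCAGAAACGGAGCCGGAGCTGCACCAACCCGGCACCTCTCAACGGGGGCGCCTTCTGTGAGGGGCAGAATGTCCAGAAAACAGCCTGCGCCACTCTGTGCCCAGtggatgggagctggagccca
Unc5a-202, exon 6 skipped: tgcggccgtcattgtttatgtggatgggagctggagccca
The form with the exon held 2.84 ± 2.32% of the TPM of these 3 transcripts in MM (0 to 6.90%) and 4.59 ± 2.38% in SHAM (0 to 6.98%). Unc5a-202 alone held 95.8% of the gene's TPM over all libraries. The form without the exon was the main one in every library, and the ranges of the groups overlapped. Unc5a-201 had a log2 fold change of -0.79 ± 0.62 (adjusted p = 0.618) and Unc5a-202 of -0.14 ± 0.10 (adjusted p = 0.588), both by edgeR over all transcripts.

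Dscam (ENSMUSG00000050272, chromosome 16) encodes a cell adhesion molecule of the immunoglobulin superfamily that can act as a netrin-1 receptor. Its level was 15.6 CPM at the lowest, 29.2 at the median and 36.6 at the highest in MM, against 25.3, 33.2 and 40.4 CPM in SHAM. The libraries MM5, MM8 and MM9 lay below all SHAM libraries and the others within the SHAM range. Its log2 fold change was -0.24 ± 0.13 (adjusted p = 0.296 by edgeR), and it was -0.04 without those 3. Of its TPM, 50.5% was assigned to the short Dscam-202 and 49.5% to the long Dscam-201.

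Over all 10 genes, 18 of 50 annotated transcripts had enough reads to be tested, and 0 of the 18 passed. Of all 33664 transcripts tested, 0.33% passed, 0.279% higher and 0.0505% lower in MM. The log2 fold change was below 0 for 16 of the 18. These belong to the same 10 genes, of which 8 were below 0, so the count adds little to that of the genes. Unadjusted p was under 0.05 for 2 of the 18, Neo1-202 (0.0119) and Dcc-202 (0.0330), by edgeR. Over all genes, 51.1% were below 0 and 22.5% had an unadjusted p under 0.05 by edgeR. These shares were not computed over all transcripts. For Ntn4, Ntn4-201 held all of the gene's TPM. Unc5d-201 held 78% and Unc5d-202 11.3%, and Ntn1-201 held 86.9%, Dcc-202 93.5%, Unc5b-201 96.9% and Unc5c-202 99.1% of their genes' TPM.

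Within a group, levels of some of the genes followed the markers of a cell type from library to library. Each of the 10 genes was compared with the mean log2 CPM of 8 marker lists in each group, which made 160 relations, chosen after values had been seen. Since MM5, MM8 and MM9 stood apart, relations in MM are over the other 6 MM libraries. In two-sided exact permutation tests, 10 of the 160 values of Pearson's r had an adjusted p under 0.05 (3 in MM and 7 in SHAM), and in 3 of the 10 Spearman's rho passed as well. A gene and a list measured in the same library share its scaling and its total.

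Ntn1 went with several lists of non-neuronal cells, and with fibroblast and Schwann cell markers in both groups. These lists moved together. Fibroblast, Schwann cell, endothelial and pericyte markers ranked the 6 MM libraries in the same order. In SHAM, fibroblast and Schwann cell markers gave nearly the same order. The 3 relations that passed in MM were all of Ntn1 with such lists, so they are not separate results and cannot tell these cell types apart. With the 8 fibroblast markers r was 0.980 over 6 MM libraries (exact permutation p = 0.00278, adjusted 0.0444; rho = 0.943, p = 0.0167, adjusted 0.178). Over 9 SHAM libraries r was 0.987 (exact permutation p = 2.48e-05, adjusted 0.00198; rho = 0.950, p = 0.000353, adjusted 0.0282). Without the 2 libraries farthest from the median of the markers, r was 0.964 in MM and 0.974 in SHAM.

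With the 10 Schwann cell markers, r of Ntn1 was 0.946 over 6 MM libraries (exact permutation p = 0.00278, adjusted 0.0444; rho = 0.943, p = 0.0167, adjusted 0.178). Over 9 SHAM libraries it was 0.960 (exact permutation p = 1.1e-05, adjusted 0.00176; rho = 0.967, p = 0.000165, adjusted 0.0265). Without 2 libraries it was 0.904 in MM and 0.961 in SHAM. Other lists passed in 1 group alone. With pericyte and smooth muscle markers r was 0.942 over 6 MM libraries (exact permutation p = 0.00278, adjusted 0.0444; rho = 0.943, p = 0.0167, adjusted 0.178) and 0.883 without 2, against 0.556 over 9 SHAM libraries (p = 0.120, adjusted 0.353; rho = 0.717, p = 0.0369, adjusted 0.236). With macrophage markers r was 0.840 over 6 MM libraries (exact permutation p = 0.0458, adjusted 0.195; rho = 0.943, p = 0.0167, adjusted 0.178) and 0.862 over 9 SHAM libraries (p = 0.00236, adjusted 0.0444; rho = 0.833, p = 0.00827, adjusted 0.165), where it rested on 2 libraries (0.479 without them). Endothelial markers reached r = 0.949 over 6 MM libraries (exact permutation p = 0.00417, adjusted 0.0606; rho = 0.943, p = 0.0167, adjusted 0.178) and 0.814 over 9 SHAM libraries (p = 0.00765, adjusted 0.0830; rho = 0.800, p = 0.0138, adjusted 0.178), and passed in neither group. For sensory neuron markers r was -0.857 over 6 MM libraries (exact permutation p = 0.0361, adjusted 0.193, rho = -0.771). It was -0.776 over 9 SHAM libraries (exact permutation p = 0.0148, adjusted 0.118, rho = -0.683). Without 2 libraries these were -0.882 in MM and -0.008 in SHAM. Satellite glia markers had r = 0.252 in MM and -0.241 in SHAM, and skeletal muscle markers -0.072 and -0.466. None of these passed. Differences between lists were not tested.

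The libraries with the most Ntn1 in each group, MM5 and SHAM6, also had the highest fibroblast sums, at 6833 TPM in MM5 and 5283 TPM in SHAM6. MM3 and SHAM8, with the least Ntn1, had the lowest fibroblast sums, at 1267 TPM in MM3 and 1217 TPM in SHAM8.

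**Figure D5:**
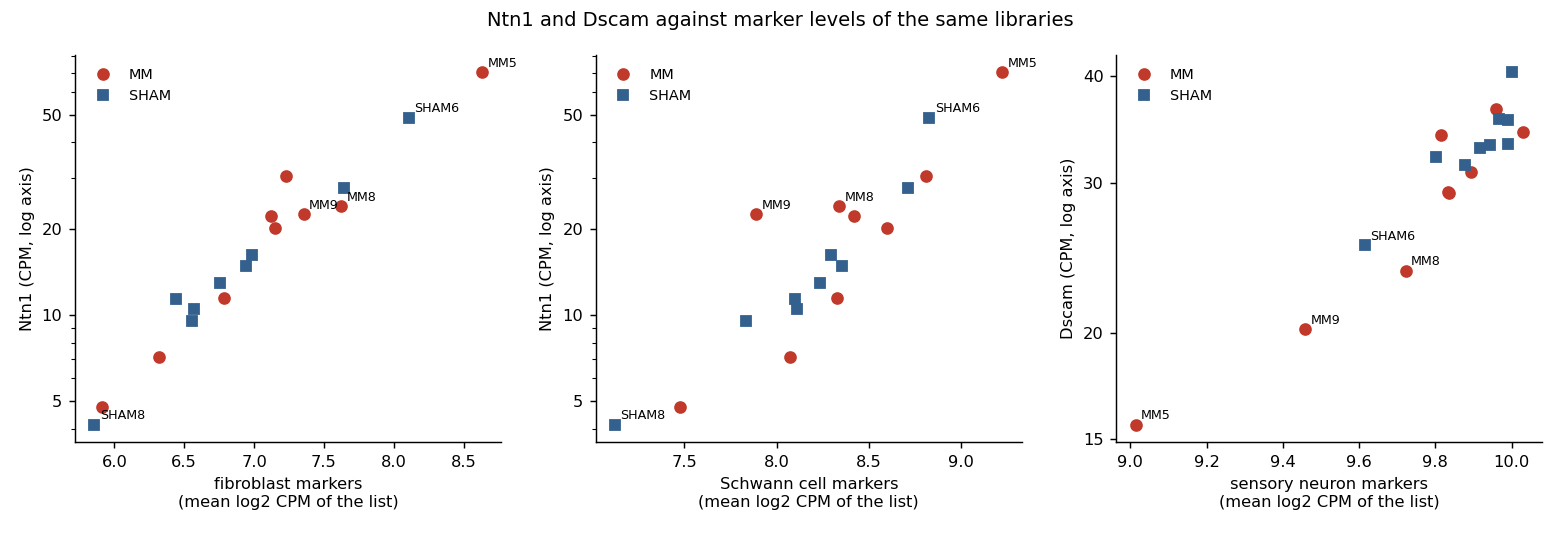
Ntn1 in CPM on a log axis against fibroblast and Schwann cell markers, and Dscam against sensory neuron markers (mean log2 CPM of each list), with circles for MM and squares for SHAM and 1 point per library. Ntn1 climbs with fibroblast markers in SHAM (r = 0.987), and Dscam is lowest in MM5, MM9 and MM8, the MM libraries with the lowest neuron markers.

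Ntn4 went with Schwann cell markers in SHAM. Its r was 0.800 over 6 MM libraries (exact permutation p = 0.0486, adjusted 0.195; rho = 0.886, p = 0.0333, adjusted 0.232). Over 9 SHAM libraries it was 0.912 (exact permutation p = 0.00117, adjusted 0.0375; rho = 0.917, p = 0.00131, adjusted 0.0525). Without the 2 farthest libraries it was 0.898 in MM and 0.754 in SHAM. The relation of Ntn4 to fibroblast markers did not pass in either group.

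Dscam, Unc5c and Unc5b went with the 13 sensory neuron markers in SHAM. For Dscam r was 0.605 over 6 MM libraries (exact permutation p = 0.217, adjusted 0.523; rho = 0.543, p = 0.297, adjusted 0.634). Over 9 SHAM libraries it was 0.898 (exact permutation p = 0.000496, adjusted 0.0260; rho = 0.933, p = 0.000750, adjusted 0.0400), and 0.748 without 2 libraries. For Unc5c r was 0.928 over 9 SHAM libraries (exact permutation p = 0.000650, adjusted 0.0260; rho = 0.900, p = 0.00203, adjusted 0.0649), and 0.714 without 2. Unc5b had r = 0.868 over 9 SHAM libraries (exact permutation p = 0.00179, adjusted 0.0444; rho = 0.733, p = 0.0311, adjusted 0.232), and 0.766 without 2. Over 6 MM libraries Unc5c had r = 0.177 (exact permutation p = 0.732, adjusted 0.887; rho = 0.257, p = 0.658, adjusted 0.843). Unc5b had the opposite sign in MM, with r = -0.570 over 6 libraries (exact permutation p = 0.258, adjusted 0.523; rho = -0.371, p = 0.497, adjusted 0.765). Whether the groups differ in these relations was not tested.

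Neo1 passed with none of the 8 lists in either group. With sensory neuron markers r was -0.540 over 6 MM libraries (exact permutation p = 0.250, adjusted 0.523; rho = -0.714, p = 0.136, adjusted 0.419). Over 9 SHAM libraries r was -0.387 (exact permutation p = 0.326, adjusted 0.592; rho = -0.383, p = 0.312, adjusted 0.658). So few libraries leave weaker relations undetected.

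No gene of 5 further lists of the pathway passed by edgeR. Among 7 other netrins and receptor relatives, 6 could be tested and 0 passed, 5 had log2 fold changes below 0 and the median was -0.066; 0 had an unadjusted p under 0.05. DESeq2 called 1 of the 7 higher, Unc5cl, which edgeR's filter had left out. The lowest p was that of Ntng2, which encodes netrin-G2, with a mean of 32.6 ± 7.83 CPM in MM and 36.9 ± 5.34 CPM in SHAM (log2 fold change -0.18 ± 0.14, adjusted p = 0.461 by edgeR). The 3 genes for netrin-G ligands, Lrrc4, Lrrc4b and Lrrc4c, all had log2 fold changes below 0, with a median of -0.228, and 0 passed by edgeR or DESeq2, with an unadjusted p under 0.05 for 1. The lowest p was that of Lrrc4b, with a mean of 10.7 ± 2.03 CPM in MM and 13.3 ± 2.31 CPM in SHAM (-0.32 ± 0.12, adjusted p = 0.135).

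Ligands that share the receptors were counted next. Of 8 tested genes for RGMs, FLRT proteins, BMPs and draxin, 0 passed by edgeR or DESeq2 and 3 had log2 fold changes below 0, with a median of 0.048; unadjusted p was under 0.05 for 1. Flrt1, whose product can bind UNC5 receptors, had the lowest p, with a mean of 10.7 ± 2.01 CPM in MM and 12.95 ± 1.67 CPM in SHAM (-0.27 ± 0.11, adjusted p = 0.149 by edgeR). Of 10 laminin and integrin genes tied to netrin-4, 0 passed by edgeR or DESeq2 and 1 was below 0, with a median of 0.085; unadjusted p was under 0.05 for 1. Itgb1, which encodes the integrin beta chain shared by many laminin receptors, had the lowest p, with a mean of 337 ± 37.0 CPM in MM and 306 ± 19.8 CPM in SHAM (0.14 ± 0.06, adjusted p = 0.197).

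Inside the cell, netrin receptors act through kinases, adaptors and regulators of the actin skeleton. Of 24 such genes, 0 passed, 17 had log2 fold changes below 0 and the median was -0.079. Unadjusted p was under 0.05 for 6 of the 24 by edgeR, against 22.5% of all genes. DESeq2 called 2 higher (Cdc42 and Fyn) and 1 lower (Trio), against 6.88% called over all genes. The lowest p was that of Fyn, a Src-family kinase that phosphorylates DCC, with a mean of 119 ± 35.4 CPM in MM and 89.4 ± 4.95 CPM in SHAM (0.41 ± 0.13, adjusted p = 0.0856). Fyn is also expressed by blood cells, and its SD was larger in MM. Whether such cells had a part in its level was not tested.

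Markers of other cells differed between the groups beside these genes. Of 10 tested plasma cell and myeloma markers, 9 rose in MM by edgeR (median log2 fold change 3.71), against 2.75% of all genes. DESeq2 called 10 of 11 higher. Igkc, which encodes an antibody light chain, averaged 963 ± 1194 CPM in MM and 5.96 ± 5.22 CPM in SHAM (log2 fold change 7.33 ± 1.0, adjusted p = 0.00681 by edgeR). Of 10 macrophage markers 4 rose by edgeR (median 0.966) and 5 by DESeq2. The summed level of the 10 was 117.3 to 600.9 TPM in MM and 81.45 to 281.7 TPM in SHAM. The highest macrophage sums in MM were those of MM5 (600.9 TPM), MM9 (403.2 TPM) and MM8 (280.3 TPM), and the other 6 MM libraries, at 117.3 to 174.5 TPM, lay within the SHAM range. All 6 red blood cell genes fell by edgeR (median -2.78) and by DESeq2, against 0.241% of all genes lower by edgeR. Their summed level was 275.5 to 1164 TPM in MM and 1289 to 14980 TPM in SHAM. By edgeR, 0 passed of 10 Schwann cell (median 0.189), 8 fibroblast (0.313), 10 endothelial (0.301), 6 satellite glia (-0.034), 6 pericyte and smooth muscle (-0.143), 6 skeletal muscle (-2.63) and 4 tested spinal cord glia markers (0.364). Unadjusted p was under 0.05 for 1, 0, 2, 0, 1, 0 and 0 of them in that order, against 22.5% of all genes. Of these lists, DESeq2 called 1 Schwann cell marker higher (Egr2) and none of the others. Fibroblast sums were 1267 to 6833 TPM in MM and 1217 to 5283 TPM in SHAM, and Schwann cell sums were 3966 to 17230 TPM in MM and 2772 to 14700 TPM in SHAM. The part of these cells in the levels of the 10 genes was not tested.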

How the data were processed

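RNA of whole lumbar DRG was sequenced on DNBSEQ instruments, per the labels' protocols. The authors quantified the libraries with Salmon 1.5.2 and GRCm39, per the submitters' processing notes, which also name DESeq2 with no version. The deposited quantifications hold an estimated count per transcript, not scaled by the authors. The deposited TPM values beside them are scaled by Salmon to a fixed total. The authors also deposited a gene table, with a normalized signal for 17787 genes in every library.

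Estimated counts were summed per gene through GENCODE M21 (GRCm38) by transcript number without version, and rounded. Of 137562 transcripts, 3620 had no gene and held 0.85% to 1.339% of reads. Exon positions and sequences are of GENCODE M21 and GRCm38, not the authors' build.

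Genes kept by filterByExpr were scaled by TMM and tested with edgeR 4.0.16 (robust quasi-likelihood, R 4.3.3). The model held the group alone, and the common coefficient of biological variation was 0.258. The test was run on simulated counts first. DESeq2 1.42.0, limma 3.58.1 and other scalings, filters and left-out libraries were alternatives. Log2 CPM values carry a prior count of 2. Correlations and plots used Python 3.11.15 with scipy 1.17.1 and matplotlib 3.10.9.

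The 10 genes and all lists were chosen with earlier results of these data known. From the pathway lists, the sensory neuron markers and the plasma cell and myeloma markers, the text names the 1 gene with the lowest p. The 3 netrin-G ligand genes are all named. Of the other marker lists, Egr2 alone is named. Transcripts are named where they hold at least 10% of their gene's TPM. Unc5a-201, Unc5a-203, Unc5cl, Cdc42, Trio and Egr2 are named after their values were seen. The p-values measure the spread between mice as labelled.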

Additional observations from a re-analysis of the deposited data

Results flagged for a closer look

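In 20 checks of the 10 genes in 2 groups of 9 libraries, 2 values lay far from the rest of their group. For normally distributed values, chance gives about 1 in 20. The checks used CPM without logs, and the rate for such values was not tested. Ntn1 was at 70.37 CPM in MM5, and the next MM library was at 30.5 CPM, a gap of 0.608 of the whole MM range. Ntn4 was at 22.96 CPM in MM5, and the next was at 13.22 CPM, a gap of 0.609 of the range. Both are in 1 library, which also had the highest sums in MM of fibroblast markers (6833 TPM), endothelial markers (233.4 TPM), macrophage markers (600.9 TPM) and Schwann cell markers (17230 TPM), and the lowest of sensory neuron markers (7717 TPM). The part of these cells in both values was not tested.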

How the results depend on the processing

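Of the 10 genes, 0 rose under every alternative, and 0 of their transcripts passed under every alternative run on transcripts. The number that fell was 1 (Neo1) with all libraries, and 1 with DESeq2, RLE scaling, upper-quartile scaling and a length offset. It was 0 with no filter, with limma on the deposited table, without SHAM7 and SHAM8, without MM5, MM8 and MM9, and with neuron-marker scaling, with or without those 3 MM libraries; leaving out 1 library gave 0 to 1. The adjusted p of Neo1 was 0.0566 without MM5, 0.0641 without MM9, 0.0529 without SHAM1, 0.0501 without SHAM2, 0.0570 without SHAM3, 0.0546 without SHAM5, 0.0627 without SHAM7, 0.0672 without SHAM8, 0.0612 without SHAM9 and 0.129 without SHAM7 and SHAM8 (edgeR).

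Over all genes, 471 passed, against 1376 by DESeq2, 35 without SHAM7 and SHAM8, 60 without MM5, MM8 and MM9, 219 by limma on the deposited table, 274 with neuron-marker scaling and 34 with that scaling and without those 3. Leaving out 1 library gave 84 (without MM5) to 1014 (without MM2), and moved the count by over 1.5 times for every library except MM3, MM4, MM6 and MM7. The causes were not tested.

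Signs changed for genes that did not pass. Without MM5, MM8 and MM9, the log2 fold change was -0.12 for Ntn1, -0.30 for Ntn4 and 0.021 for Unc5c, and with neuron-marker scaling as well it was -0.16, -0.30 and 0.042. Ntn4 was at -0.026 without SHAM7 and SHAM8 and ranged from -0.13 to 0.15 when 1 library was left out, below 0 without MM5 or without SHAM8.

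The replicate numbers were also used as a block, and then 8 genes passed and 0 of the 10 fell, with Neo1 at -0.22 (adjusted p = 0.218). Only 2 of 9 pairs of like-numbered libraries had a correlation over 0.1 (range -0.32 to 0.263), and 2 of 9 MM libraries correlated best with their own number. The labels give no pairing, and the numbers were not treated as pairs in the main fit. These correlations also carry differences in tissue content, so they cannot show whether like-numbered mice shared a batch. Depth limits Dcc most, where counting error alone is large.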

Other observations

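Unc5cl, a relative of the UNC5 genes in its cytoplasmic domains, was left out by the filter on low counts and is named here after its values were seen. It had 2 reads at the lowest, 11 at the median and 84 at the highest in MM libraries, against 0, 2 and 4 reads in SHAM. The highest were MM9 with 84, MM5 with 53 and MM8 with 49 reads, the libraries with the highest sums of plasma cell and myeloma markers. With no filter its log2 fold change was 3.82 ± 0.79, with an adjusted p of 0.0295 by edgeR, and DESeq2 also called it higher in MM. Whether the tumour cells had a part in this was not tested.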
